A study of Mus musculus with 8 samples.

Results

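The genes described here are 10 transcripts of the circadian clock and of its direct output in mouse liver: Arntl (which codes for BMAL1), Npas2, Per1, Per2, Per3, Cry1, Nr1d1 and Nr1d2 (REV-ERBα and REV-ERBβ), Dbp and Nfil3. They were chosen by symbol, and all 10 were found by Ensembl identifier among the 35275 genes of the count table and of the FPKM table. All are protein-coding, and their positions below are those of GENCODE M21 on GRCm38. The samples were livers of male mice, 9 weeks old and of strain C57BL/6 in the sample labels (the Pcx allele came from C57BL/6NTac stock), taken after a fast of 24 h that ran from 3 pm to 3 pm, with 1 RNA library per mouse. Pcx L-/- mice (n = 4) carried a floxed exon 10 of Pcx together with an Albumin-Cre transgene, and Pcx f/f littermates (n = 4), which the sample labels call WT, carried the floxed allele without the transgene. All mice were housed under 14 h of light and 10 h of dark with chow before the fast. The Albumin promoter drives Cre in hepatocytes, so the other cells of the liver keep Pcx, and the sources used here do not give the hour at which the lights came on. All mice were fasted over the same hours and each genotype was sampled at 1 time of day, so a shift in the timing of a rhythm and a change in its level cannot be told apart.

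The clock of a liver cell is a loop of transcription in which BMAL1, paired with CLOCK or NPAS2, binds E-boxes and switches on the Period and Cryptochrome genes, whose proteins then block that pair. BMAL1 also switches on Nr1d1 and Nr1d2, whose proteins repress Arntl, Npas2 and Nfil3 through ROR elements, where the ROR receptors activate. DBP, with its relatives TEF and HLF, activates genes through D-boxes, and NFIL3 represses through the same sites. In a liver with a running clock the transcripts of the E-box genes and those of Arntl and Npas2 peak at nearly opposite times of day, and feeding time, temperature, glucocorticoids and cyclic AMP can all set this rhythm.

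The elements named above can be read in the promoters of the genes. Sequences from RefSeq (GRCm38.p6, the build to which mm10 belongs), covering 250 bases before to 50 bases after each start site, were found for 9 of the 10 genes in 11 windows. They were searched on both strands for the E-box CACGTG, the related CACGTT, the D-box in the forms TTATGTAA and TTACGTAA, the ROR element in the forms TAGGTCA and TGGGTCA, and the cyclic AMP response element TGACGTCA. The next 4 stretches of 100 bases, written 5′ to 3′ on the strand of the gene and lying outside the annotated exons, are shown because they hold the elements of the Cryptochrome, Period and REV-ERB genes whose levels are given below. Capitals mark a match on either strand, so that AACGTG is CACGTT read from the other strand. The stretches are chr10:85185075-85185174 for Cry1 (minus strand), chr11:69098749-69098848 for Per1 (plus strand), chr11:98775378-98775477 for Nr1d1 (minus strand) and chr4:151044786-151044885 for Per3 (minus strand).
Cry1: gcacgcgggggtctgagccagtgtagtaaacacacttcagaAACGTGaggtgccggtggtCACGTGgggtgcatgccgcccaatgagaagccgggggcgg
Per1: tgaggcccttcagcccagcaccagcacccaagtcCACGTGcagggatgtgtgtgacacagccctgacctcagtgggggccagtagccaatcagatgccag
Nr1d1: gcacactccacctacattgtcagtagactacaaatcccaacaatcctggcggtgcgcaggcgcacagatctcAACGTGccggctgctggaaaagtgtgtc
Per3: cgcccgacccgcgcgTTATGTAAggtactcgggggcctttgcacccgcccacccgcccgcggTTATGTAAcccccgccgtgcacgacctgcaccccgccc
Cry1 held an E-box and a CACGTT, which start 60 and 79 bases before its start site. Per1 held 1 E-box, Nr1d1 held 1 CACGTT, and Per3 held 2 D-boxes and no E-box in its window. Outside these stretches, Nfil3 held a ROR element that starts 12 bases before its start site, and 1 of the windows of Arntl held one 30 bases after its start. Dbp, Npas2 and Nr1d2 held none of these 5 elements in their windows. Over all 32851 windows, the E-box was found in 7.15%, CACGTT in 4.68%, the D-box in 1.06%, the ROR element in 6.45% and the cyclic AMP element in 1.79%.

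The libraries held 12016242 to 20023108 reads on genes. Pcx, the deleted gene, had normalized counts of 556 to 758 in Pcx L-/- liver and 14371 to 22059 in Pcx f/f liver. A normalized count is the number of reads divided by the TMM-scaled library size and brought to the geometric mean of these sizes. Pcx L-/- replicate 1, with the highest of the 4 Pcx L-/- values for Pcx, stood apart from the other 3 Pcx L-/- livers. Over the 4602 genes that passed the test without it, its level lay a median of 47.4% of the way from the Pcx f/f mean to the mean of the other Pcx L-/- livers on the log2 scale. The same measure for the other Pcx L-/- livers, each left out in turn, was 119%, 99.0% and 123%. The reference mean for each of these included replicate 1, so they are not measured against the same kind of reference as the 47.4%. The summed level of 5 red cell transcripts was 69307 in replicate 1, 6244 to 15778 in the other Pcx L-/- livers and 4747 to 16715 in Pcx f/f livers, and none of the 5 was at 0 in all libraries. It is also the only Pcx L-/- mouse numbered in the 500s. The summed level of 6 hepatocyte markers, all detected, was 1636230 to 2144250 in Pcx f/f livers and 938811 to 1428480 in Pcx L-/- livers. Of the 6 hepatocyte markers 2 were called lower, and 5 without Pcx L-/- replicate 1. Of all genes tested, 13.5% were called lower and 27.6% in either direction over 8 mice, and 34.5% in either direction without replicate 1. Alb, the albumin gene and the largest part of the hepatocyte sum, was not called over 8 mice (log2 fold change -0.63, adjusted p = 0.0532, edgeR). No red cell transcript was called over 8 mice, and 1 of the 5 was without replicate 1, Alas2, a heme synthesis enzyme of red cells (log2 fold change -1.06 (adjusted p = 0.00247), edgeR). None of the markers of Kupffer cells, endothelial cells, stellate cells or lymphocytes was called, and 1 of 5 of cholangiocytes was lower. In whole liver, fewer cells of a type and less RNA per cell cannot be told apart, and the part of these differences in the results for the clock genes was not tested.

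Liver of Pcx L-/- mice had more Arntl and Nr1d1 RNA and less Per2 and Cry1 RNA than liver of Pcx f/f mice. In edgeR's quasi-likelihood fit, with p-values adjusted by Benjamini-Hochberg over 13168 genes, 9 of the 10 clock genes could be tested, 2 were higher and 2 were lower at an adjusted p under 0.05, and their median log2 fold change was -0.32. Over all genes tested, 14.1% were higher and 13.5% were lower (1855 and 1777 genes), with a median of -0.0052. Scaled by library size alone, without TMM factors, the clock genes gave 2 higher and 1 lower, and all genes gave 3915 higher and 870 lower. In normalized counts the genotypes did not overlap for 4 of the 9 genes tested (Arntl and Nr1d1 above, Cry1 and Nr1d2 below), nor for Npas2. They did not overlap for 27.6% of all genes tested. As FPKM, the ranges of Cry1 and of Nr1d2 overlapped between genotypes. Without Pcx L-/- replicate 1 all 10 genes could be tested, 3 were higher and 4 were lower, while 34.5% of 13330 genes were called in either direction. Npas2 passed the low-count filter in that fit only through the Pcx L-/- livers, where it was high. Its call there is therefore no separate support for a difference.

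**Figure D1:**
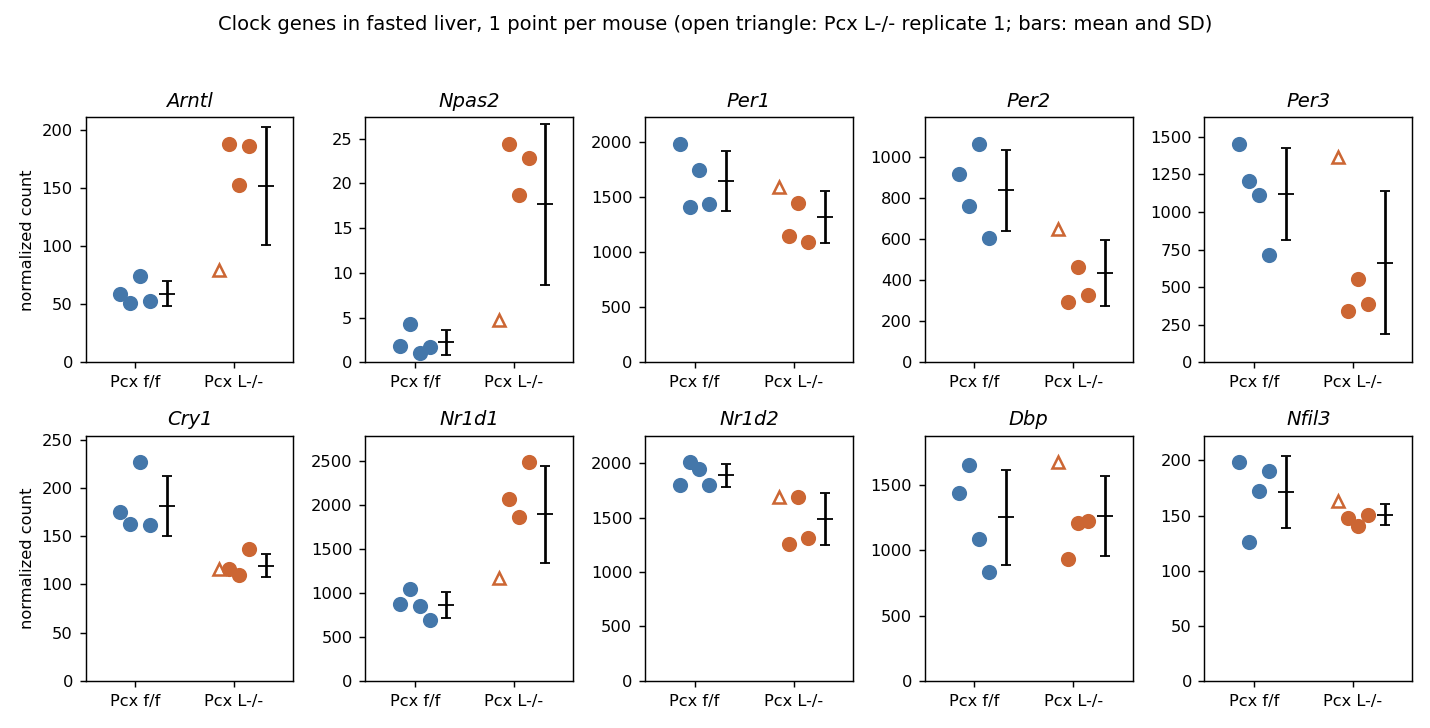
Normalized count (vertical axis, from 0) of each of the 10 clock genes in the 4 Pcx f/f and 4 Pcx L-/- livers, 1 point per mouse, with the mean and SD of each genotype beside the points. Pcx L-/- replicate 1 is the open triangle: it lies near the Pcx f/f points for Arntl, Npas2 and Per3 and among the other Pcx L-/- points for Cry1.

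Arntl (ENSMUSG00000055116, chr7:113207465-113314126, plus strand), the DNA-binding partner without which the clock does not run, was among the scarcer of these transcripts. Its normalized counts were 59.2, 50.9, 74.2 and 52.6 in Pcx f/f replicates 1 to 4 and 79.3, 189, 153 and 187 in Pcx L-/- replicates 1 to 4. Every Pcx L-/- liver lay above every Pcx f/f liver, with replicate 1 just over the highest control and the other 3 well above it. Against 59.2 ± 10.6 (SD, n = 4) in control liver, the Pcx L-/- mean was 152 ± 51.1 (SD, n = 4), and Arntl rose by 2.55-fold (log2 fold change 1.35, standard error 0.27, adjusted p = 0.00468, edgeR). Npas2 (ENSMUSG00000026077, chr1:39193731-39363236, plus strand), which can take the place of CLOCK, had too few reads for that test, with 2, 4, 1 and 1 reads in Pcx f/f livers and 5, 32, 24 and 23 in Pcx L-/- livers. The genotypes did not overlap, and an exact two-sided permutation test on log2(normalized count + 1) gave p = 0.0286, the smallest that 4 mice against 4 can give. In the fit without a filter on low counts, the log2 fold change of Npas2 was 2.92 (adjusted p = 0.00238, edgeR). The transcript of Clock itself averaged 796 ± 99.5 (SD, n = 4) in Pcx L-/- liver, against 798 ± 159 (SD, n = 4) in controls (log2 fold change 0.00020, standard error 0.15, adjusted p = 0.999, edgeR).

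The Period genes code for proteins that, bound to the Cryptochromes, hold back BMAL1. They lie apart in the genome, Per1 (ENSMUSG00000020893, chr11:69095217-69109960, plus strand), Per2 (ENSMUSG00000055866, chr1:91415982-91459324, minus strand) and Per3 (ENSMUSG00000028957, chr4:151003652-151044665, minus strand) each on a chromosome of its own. Per2 counts were 919, 759.6, 1065 and 608 in Pcx f/f livers and 651, 296, 465 and 329 in Pcx L-/- livers, where replicate 1 lay above the lowest control and the other 3 lay below every control. Per2 fell to 0.518 of the control level (log2 fold change -0.95, standard error 0.24, adjusted p = 0.0155, edgeR). Per3 showed the same division of the Pcx L-/- mice more sharply. Its counts were 1455, 1204, 1112 and 713 in Pcx f/f livers and 1364, 343, 556 and 387 in Pcx L-/- livers, so that replicate 1 was higher than 3 of the 4 controls and the other 3 were lower than all controls. Per3 did not pass the test over 8 mice (log2 fold change -0.76, standard error 0.39, adjusted p = 0.172, edgeR), and without replicate 1 its log2 fold change was -1.39 (adjusted p = 0.00114). That fit keeps Pcx L-/- mice numbered in the 800s only, against Pcx f/f mice of the 500s and the 800s. With the series of mouse numbers as a covariate over 8 mice, Per3 was not called (edgeR). Per1, which also answers quickly to glucocorticoids and cyclic AMP, had counts of 1985, 1409, 1746 and 1441 in Pcx f/f livers and 1589, 1149, 1449.5 and 1090.5 in Pcx L-/- livers. These ranges overlapped and the test was not passed (log2 fold change -0.32, standard error 0.15, adjusted p = 0.153, edgeR), with an approximate 95% interval of -0.70 to 0.060 for the log2 difference.

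Cry1 (ENSMUSG00000020038, chr10:85131700-85185064, minus strand) codes for a repressor of the pair of BMAL1 and CLOCK. Its counts were 175, 163, 227 and 161 in Pcx f/f livers and 116, 116, 109.6 and 137 in Pcx L-/- livers. Here all 4 Pcx L-/- livers, replicate 1 included, lay below all controls, and Cry1 fell to 0.658 of the control level (log2 fold change -0.60, standard error 0.15, adjusted p = 0.014, edgeR). The other Cryptochrome, Cry2, which is not one of the 10 genes, also fell (log2 fold change -0.60, standard error 0.15, adjusted p = 0.012, edgeR). With libraries scaled by size alone Cry1 was not called (log2 fold change -0.32, adjusted p = 0.187, edgeR), whereas Cry2 was called in all 18 alternatives. Of the 4 genes whose promoter stretches are printed above, Cry1, with an E-box and a CACGTT, was the lower one that passed the test over 8 mice, Nr1d1, with a CACGTT, was the higher one, and Per1, with an E-box, and Per3, with 2 D-boxes, did not pass it.

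The 2 REV-ERB genes, Nr1d1 (ENSMUSG00000020889, chr11:98767932-98775333, minus strand) and Nr1d2 (ENSMUSG00000021775, chr14:18204054-18239127, minus strand), whose proteins are repressors of Arntl, had log2 fold changes of opposite sign. Nr1d1 counts were 873, 1043, 845 and 689 in Pcx f/f livers and 1167, 2059, 1856 and 2483 in Pcx L-/- livers. No Pcx L-/- liver fell within the control range, and Nr1d1 rose by 2.19-fold (log2 fold change 1.13, standard error 0.21, adjusted p = 0.00348, edgeR). Nr1d2 counts were 1795, 2008, 1944 and 1801 in Pcx f/f livers and 1686, 1258, 1692 and 1309 in Pcx L-/- livers, all 4 of the latter below all controls. This difference missed the threshold over 8 mice (log2 fold change -0.34, standard error 0.12, adjusted p = 0.0614, edgeR) and passed it without replicate 1, at -0.41 (adjusted p = 0.0243). The DESeq2 Wald test over the same 8 mice called it (-0.35, adjusted p = 0.0355), as it did 26.9% of the genes it gave an adjusted p. Nr1d2 was called in 3 of 18 alternatives, and its log2 fold change ran from -0.41 to -0.068 over them. As FPKM the ranges of Nr1d2 overlapped, at 21.1, 23.9, 22.6 and 18.9 in Pcx f/f livers and 20.6, 18.5, 24.7 and 18.8 in Pcx L-/- livers. Within each liver there were 0.486, 0.520, 0.434 and 0.383 reads of Nr1d1 per read of Nr1d2 in Pcx f/f replicates 1 to 4, and 0.692, 1.64, 1.10 and 1.90 in Pcx L-/- replicates 1 to 4. This pair of genes was set side by side after its values had been seen. Nr1d1 shares 263 exonic bases, 8.55% of its exons, with Thra on the opposite strand, and whether reads were counted by strand is not stated. Thra, the thyroid hormone receptor α gene, stood lower in Pcx L-/- liver (log2 fold change -0.41, adjusted p = 0.0332, edgeR), opposite to Nr1d1.

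The D-box factors Dbp (ENSMUSG00000059824, chr7:45705088-45710203, plus strand) and Nfil3 (ENSMUSG00000056749, chr13:52967209-52981073, minus strand) did not pass the test. Dbp, the most abundant of the 10 transcripts per length in Pcx f/f liver, had counts of 1437, 1656, 1089 and 835 in Pcx f/f livers and 1676, 935, 1209 and 1225 in Pcx L-/- livers. The ranges overlapped almost wholly, and the mean was 1261 ± 307 (SD, n = 4) against 1254 ± 364 (SD, n = 4). The log2 fold change of 0.0053 had an adjusted p of 0.991 (edgeR) and an approximate 95% interval of -0.53 to 0.54. Of the exonic bases of Dbp, 539 (18.01%) overlap Sphk2 on the other strand, a sphingosine kinase gene that rose in Pcx L-/- liver (log2 fold change 0.62, adjusted p = 0.00141, edgeR), so that reads of either gene there cannot be told apart without strand. Nfil3, which represses through the D-box, had counts of 198, 126, 172 and 190.1 in Pcx f/f livers and 163, 148, 141 and 151 in Pcx L-/- livers (log2 fold change -0.19, standard error 0.16, adjusted p = 0.41, edgeR). Of the other activators of the D-box, Tef (log2 fold change -0.59, standard error 0.16, adjusted p = 0.0197, edgeR) and Hlf (log2 fold change -0.84, standard error 0.14, adjusted p = 0.00187, edgeR) both fell, with all 4 Pcx L-/- livers below all controls. Whether Dbp differed from Tef or Hlf in this was not tested.

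Ranked by FPKM, which adjusts for gene length and library total, the 10 genes ran in Pcx f/f liver from Dbp at 37.8 ± 12.5 (SD, n = 4) through Nr1d2 at 21.6 ± 2.12, Per1 at 18.9 ± 3.67 and Nr1d1 at 17.0 ± 3.63 to Per3 at 10.1 ± 3.14 and Per2 at 7.72 ± 2.06. Below these came Nfil3 at 4.50 ± 0.797, Cry1 at 3.22 ± 0.619, Arntl at 1.09 ± 0.218 and Npas2 at 0.0284 ± 0.0193 FPKM. Each gene's values over the 4 control mice overlapped those of its neighbours in this order, except between Cry1 and Arntl and between Arntl and Npas2, where they did not meet. In Pcx L-/- liver Nr1d1 reached 45.9 ± 15.5 FPKM (SD, n = 4), beside Dbp at 45.3 ± 7.24, while Nr1d2 was at 20.6 ± 2.85. Arntl at 3.47 ± 1.33 FPKM then overlapped Cry1 at 2.59 ± 0.352.

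Ratios of reads within a liver do not depend on how libraries are scaled. They are given here, with an index that does depend on it, as a description with no test. Dbp had 24.3, 32.5, 14.7 and 15.9 reads per read of Arntl in Pcx f/f replicates 1 to 4 and 21.1, 4.96, 7.89 and 6.57 in Pcx L-/- replicates 1 to 4. Replicate 1 thus had a ratio within the control range and the other 3 Pcx L-/- livers had lower ratios than any control. For Per2 the ratio to Arntl was 15.5, 14.9, 14.4 and 11.5 in Pcx f/f and 8.21, 1.57, 3.04 and 1.77 in Pcx L-/- livers, with all Pcx L-/- livers below all controls. The ratio of Nr1d1 to Arntl was 14.8, 20.5, 11.4 and 13.1 in Pcx f/f and 14.7, 10.9, 12.1 and 13.3 in Pcx L-/- livers, and these ranges overlapped. The ratio of Dbp to Nfil3 overlapped as well, at 7.24, 13.2, 6.33 and 4.39 in Pcx f/f and 10.3, 6.31, 8.59 and 8.12 in Pcx L-/- livers. A simple index, the mean log2 level of Per1, Per2, Per3, Nr1d1, Nr1d2 and Dbp minus that of Arntl, Npas2, Nfil3 and Cry1, was 4.62 ± 0.19 (SD, n = 4) in Pcx f/f liver. In Pcx L-/- liver it was 4.57 in replicate 1 and 3.08, 3.68 and 3.21 in the other 3. Each gene has equal weight in this index, also Npas2, which had only 2, 4, 1 and 1 reads in the Pcx f/f livers. The part of Npas2 in the difference was not separated. The grouping does not follow the promoter search above, which found an E-box in Cry1 and none in Per3, Dbp or Nr1d2.

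**Figure D2:**
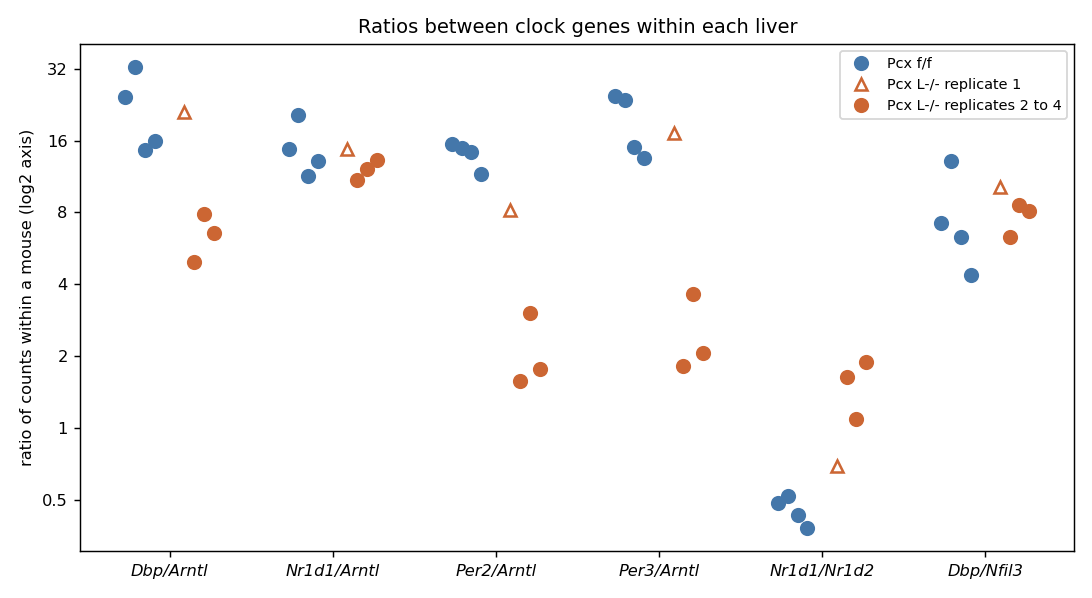
Ratios of read counts between pairs of clock genes within each liver, on a log2 axis, with 1 point per mouse (filled circles: Pcx f/f and Pcx L-/- replicates 2 to 4; open triangles: Pcx L-/- replicate 1). Per2/Arntl was 11.5 or more in every Pcx f/f liver and 8.21 or less in every Pcx L-/- liver, whereas Nr1d1/Arntl overlapped between genotypes.

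Pcx L-/- replicate 1 lay at a different distance from the controls for each gene. Of the 7 genes of the list that passed the test without it, its level lay a median of 31.5% of the way from the Pcx f/f mean to that of the other 3 Pcx L-/- livers. It was at 27.5% for Arntl, 31.5% for Npas2, 27.7% for Per2, 34.5% for Nr1d1 and 38.1% for Nr1d2. For Per3 it lay on the far side of the control mean, at -24.1%, and for Cry1 it lay past the other Pcx L-/- livers, at 109%. In 2 of these 7 genes, Per2 and Per3, replicate 1 was within the range of the controls, as it was in 29.9% of the 4602 genes called without it. Without replicate 1 the log2 fold change was 1.56 (adjusted p = 9.29e-05) for Arntl, 3.21 (adjusted p = 0.000336) for Npas2, 1.30 (adjusted p = 9.51e-05) for Nr1d1, -1.21 (adjusted p = 0.00123) for Per2 and -0.59 (adjusted p = 0.0182) for Cry1 (edgeR). Npas2 was in that fit because its reads in Pcx L-/- livers alone passed the low-count filter. When Pcx f/f replicate 3 or Pcx L-/- replicate 4 was left out instead, Per2 was not called, with an adjusted p of at most 0.0539.

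**Figure D3:**
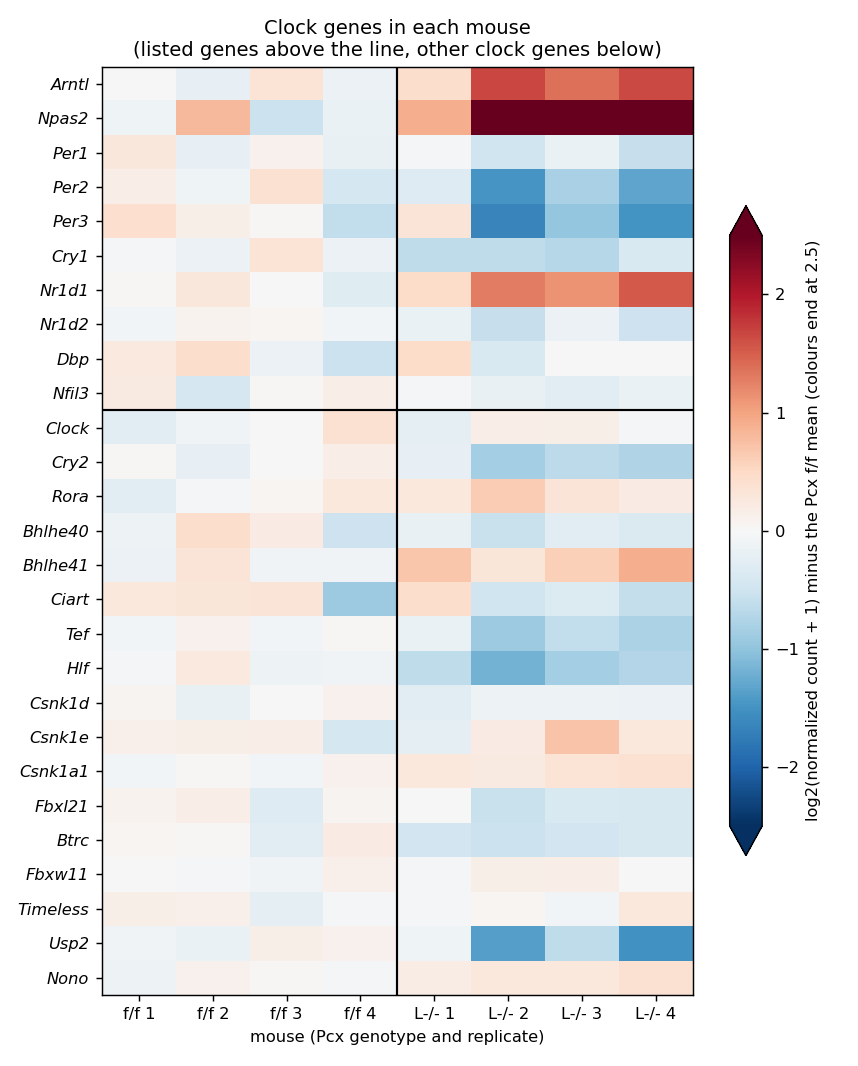
Level of 27 clock genes in each mouse as log2(normalized count + 1) minus the Pcx f/f mean, in red where higher and in blue where lower, with the 10 listed genes above the line (Rorb, with 1 read in all, is not drawn). The columns of Pcx L-/- replicates 2 to 4 resemble each other, and replicate 1 is paler for Arntl, Npas2, Per2 and Nr1d1.

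The mouse numbers fall into a series in the 500s (Pcx f/f replicates 1 and 2 and Pcx L-/- replicate 1) and one in the 800s. What the series stands for is not stated. In a fit with genotype and series, 0 of the 9 clock genes tested were called for the series (edgeR), where 0.0304% of all genes were. The share of all genes at an unadjusted p under 0.05 was not counted, so the number of clock genes there has no background beside it. At that threshold there were 3 clock genes, namely Per3 (log2 difference of the 800s from the 500s -1.05, adjusted p = 0.181), Dbp (-0.64, adjusted p = 0.162) and Arntl (0.65, adjusted p = 0.288). The DESeq2 Wald test called 2 of them, Per3 (-1.04, adjusted p = 0.0128) and Dbp (-0.62, adjusted p = 0.00829), and 1.36% of the 11139 genes it gave an adjusted p. Within the controls, Dbp was 1437 and 1656 in the 500s and 1089 and 835 in the 800s. Per3 was 1455 and 1204 in the 500s and 1112 and 713 in the 800s. With 1 Pcx L-/- mouse in the 500s, a difference of that mouse and a difference of the series cannot be told apart in Pcx L-/- liver. With only the mice of the 800s, 3 against 2, Arntl, Npas2 and Nr1d1 were higher and Per2, Per3 and Cry1 were lower (edgeR). Of all 13471 genes tested in that fit, 4016 were called in either direction. Npas2 again passed the low-count filter through the Pcx L-/- livers alone.

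The wider clock was read through 18 further genes taken from general knowledge, chosen with earlier results of these data known. Of 17 tested, 2 were higher and 5 were lower (5 and 2 with library size alone), with a median log2 fold change of -0.17. Of all genes tested, 27.6% were called in either direction, and with library size alone 3915 were higher and 870 lower. The largest log2 fold change was that of Hlf, the D-box factor, whose counts were 1351, 1644, 1277 and 1307 in Pcx f/f livers and 898, 612, 769 and 833 in Pcx L-/- livers, all of the latter below all controls. Rora, which codes for an activator at the ROR element, had a log2 fold change of 0.35 that was not called (adjusted p = 0.0787, edgeR), and Rorb had 1 read over the 8 libraries. Besides Cry2, Tef and Hlf, the genes that fell were Btrc (-0.48, adjusted p = 0.0128), part of a ubiquitin ligase that marks Period proteins, and Usp2 (-0.80, adjusted p = 0.0426), a rhythmic deubiquitinase (edgeR). The 2 that rose were Bhlhe41 (0.63, adjusted p = 0.0298), which codes for the E-box repressor DEC2, and Csnk1a1 (0.30, adjusted p = 0.0467), a casein kinase (edgeR). Of these 7, Cry2, Hlf and Btrc were called with any 1 of the 8 mice left out, while Tef was called in 5 of the 8 such fits, Bhlhe41 in 3, Csnk1a1 in 2 and Usp2 in 1, the one without Pcx L-/- replicate 1. Bhlhe40 (DEC1) stood at -0.39 and Ciart (CHRONO, a repressor of BMAL1) at -0.27, neither called. The kinases Csnk1d (-0.17) and Csnk1e (0.25), the ubiquitin ligase parts Fbxl21 (-0.34) and Fbxw11 (0.070), and Timeless (0.050) and Nono (0.27) were not called either (log2 fold changes, adjusted p of 0.0666 or more, edgeR).

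**Figure D4:**
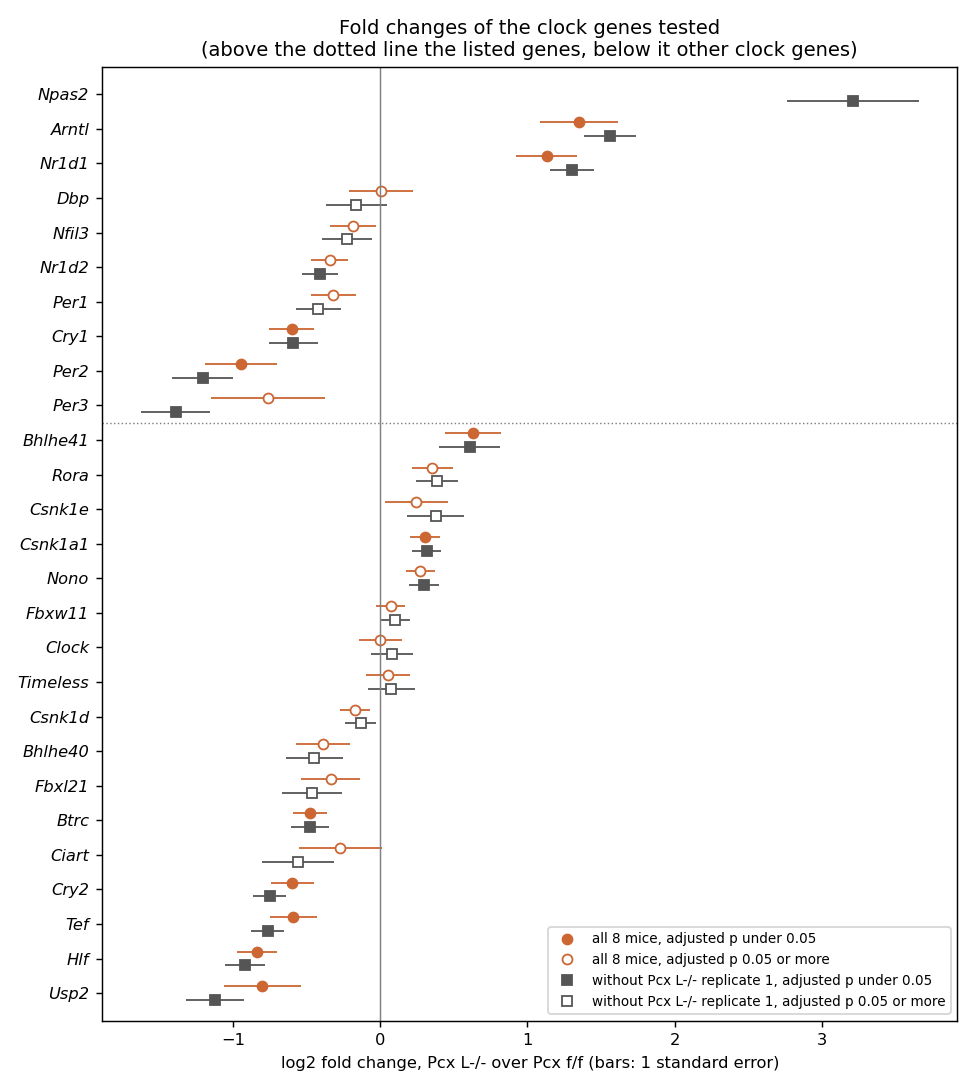
Log2 fold change of Pcx L-/- over Pcx f/f liver for the 10 listed clock genes (above the dotted line) and 17 other clock genes, with all 8 mice (circles) and without Pcx L-/- replicate 1 (squares), bars of 1 standard error, and filled symbols where the adjusted p was under 0.05 (edgeR). Per3 moved most when replicate 1 was left out, and Npas2 has a value only then.

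Rhythmic output genes of the liver, 20 in a list from general knowledge, were mostly lower in Pcx L-/- liver. The list was chosen with earlier results of these data known, so its counts beside the shares of all genes are a description only. All 20 were tested, 4 were higher and 11 were lower (4 and 8 with library size alone), with a median log2 fold change of -0.73, where 14.1% of all genes were higher and 13.5% lower. The 6 hepatocyte markers also had negative log2 fold changes in Pcx L-/- liver, with a median of -0.71, and their part in the levels of the output genes was not tested. The 3 lowest were Lpin1 (-1.53, adjusted p = 0.0234), a phosphatidate phosphatase, Noct (-1.46, adjusted p = 0.00863), nocturnin, and Rgs16 (-1.44, adjusted p = 0.000229), a regulator of G protein signaling (edgeR). Rgs16 counts were 983, 981, 1258 and 1188 in Pcx f/f livers and 377, 426, 495 and 328 in Pcx L-/- livers, so that replicate 1 sat with its genotype there. Lpin1 varied widely among controls, with counts of 3854 and 3678 in the mice numbered in the 500s and 9261 and 16309 in those of the 800s. Its log2 difference of the 800s from the 500s was 1.27 (unadjusted p = 0.000592, adjusted p = 0.162, edgeR). Lpin1 was called for genotype in 4 of the 8 fits that left out 1 mouse. The 3 highest were Tubb2a (2.72, adjusted p = 0.000713), a tubulin, Cyp2a4 (1.66, adjusted p = 0.00769), a steroid hydroxylase, and Avpr1a (1.59, adjusted p = 0.00255), a vasopressin receptor (edgeR). Tubb2a counts were 246, 275, 423 and 373 in Pcx f/f livers and 881, 2622, 2227 and 2901 in Pcx L-/- livers, again with replicate 1 between the controls and the rest of its genotype. Cyp2a4 and Cyp2a5 are near-identical copies, so the division of reads between them is uncertain. Cyp2a5 was called in the other direction (log2 fold change -0.82, adjusted p = 0.0412, edgeR). Its mean count in Pcx f/f liver was 24262, against 60.8 for Cyp2a4. Many of these genes also answer to feeding and fasting, and which input moved them was not tested.

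**Figure D5:**
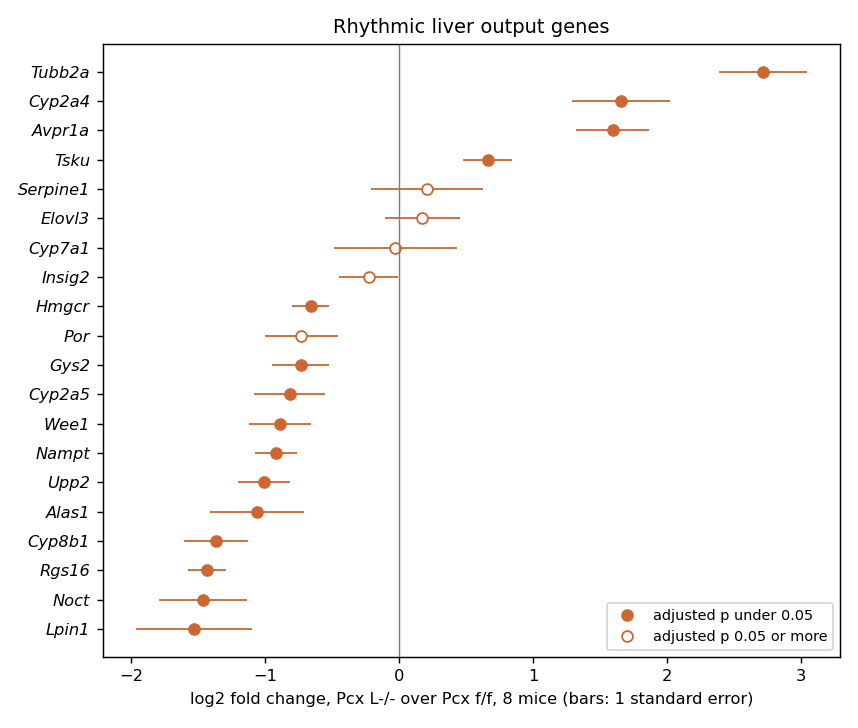
Log2 fold change of Pcx L-/- over Pcx f/f liver (horizontal axis, 8 mice, edgeR) of 20 rhythmic liver output genes, with bars of 1 standard error and filled circles where the adjusted p was under 0.05. The genes run from Lpin1 at -1.53 to Tubb2a at 2.72, with 11 filled circles on the left of 0 and 4 on the right.

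Inputs to the clock were read through 3 lists, also chosen with earlier results of these data known. Their counts stand against 27.6% of all genes called. Of the genes that follow body temperature, 9 of 10 were tested and 1 was called, Hspb1 (1.61, adjusted p = 0.00695), a small heat shock protein (edgeR). The next highest, Hspa1b (0.70) and Hspa8 (0.37), and the lowest, Hsph1 (-0.20), Dnajb1 (-0.17) and the cold-inducible Cirbp (-0.032), were not called (log2 fold changes). Of 8 glucocorticoid targets 3 were higher and 2 were lower. Sgk1 (2.14), a kinase, and the metallothioneins Mt2 (1.48) and Mt1 (1.21) rose, while Fkbp5 (-0.91), a co-chaperone of the glucocorticoid receptor, and Tsc22d3 (-0.78), which codes for GILZ, fell (log2 fold changes, adjusted p of 0.0163 or less, edgeR), and Tat (-0.43) was not called. Of 9 targets of CREB, the factor activated by cyclic AMP, 7 were tested. Egr1 (1.63) and Fos (1.53) rose, Sik1 (-1.02) and Pck1 (-0.72) fell (log2 fold changes, adjusted p of 0.0476 or less, edgeR), and Nr4a1 (1.05) and Ppargc1a (-0.49) were not called. With 1 mouse left out, the calls of Sgk1, Mt1, Mt2, Tsc22d3 and Hspb1 were kept in all 8 fits, that of Fkbp5 in 5, those of Sik1 and Pck1 in 4 and those of Fos and Egr1 in 2. With both forms of limma on FPKM no gene of these 2 lists was called lower, while 3 glucocorticoid targets and 2 CREB targets were higher. The median log2 fold change was 0.17 for the temperature genes, 0.20 for the glucocorticoid targets and -0.057 for the CREB targets.

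The genes whose levels over the 8 libraries were most like those of Arntl, by Pearson's r of log2 normalized counts, were Clcf1, Ywhag, Noc4l, Prmt5 and Wdr77 (r of 0.990 to 0.995), and the most unlike were Pla2g15, Miga2, Kank2, Atg5 and Fzd4 (-0.993 to -0.996). With 4 libraries of each genotype, such values hold the difference between genotypes. After the genotype means were subtracted, Patl1, Yipf5, Clcf1, Prmt5 and Mdm2 were the most alike (0.977 to 0.993) and Chrm1, Pla2g15, Enho, Atg5 and Miga2 the most unlike (-0.980 to -0.992). Of the clock genes, those nearest to Arntl in this way were Nr1d1 at the positive end (0.78) and Tef (-0.95) and Fbxl21 (-0.90) at the negative end. For Dbp, over the 8 libraries, the most alike were Azin2, B630019A10Rik, Atraid, Psmb9 and Selenoh (0.951 to 0.986) and the most unlike were Mlec, Zfp568, Tbc1d8, Hyou1 and Pdia6 (-0.959 to -0.975). After subtraction these were Azin2, Gnpnat1, Ift46, 1110032A03Rik and B630019A10Rik (0.974 to 0.987), and Tbc1d8, Ctdp1, Txlna, Acot2 and Ero1lb (-0.988 to -0.994), and among clock genes Ciart (0.82), Hlf (0.81) and Per3 (0.81) stood nearest at the positive end and Clock (-0.87) at the negative end. These values rest on 8 libraries and are given with no test. After the subtraction, the largest deviation of Arntl was that of Pcx L-/- replicate 1 (79.3 against 153 to 189 in the rest of its genotype). The values of r for Arntl thus depend much on that 1 mouse, and they were not computed without it.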

How the data were processed

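Liver RNA of 4 Pcx L-/- and 4 Pcx f/f mice was sequenced, 1 library per mouse. The authors deposited read counts per Ensembl gene and FPKM values. The submitters' processing notes list the genome mm10, STAR 2.5, HTSeq 0.6.1 and DESeq2, with no roles, and the strand setting is not stated. Symbols from GENCODE M21 matched 34490 of 35275 identifiers (97.8%). Counts were tested with edgeR 4.0.16 in R 4.3.3 (TMM factors, filterByExpr at a count of 10 and a total of 15, quasi-likelihood F test, Benjamini-Hochberg over 13168 genes, calls at an adjusted p under 0.05). Standard errors are approximate, from the F statistic. Depth was 12016242 to 20023108 reads on genes, so genes of few reads, such as Npas2, are the least precise. FPKM gave levels per length and were tested with limma 3.58.1 on log2(FPKM + 1) and log2(FPKM + 0.1) as an alternative. Other alternatives were DESeq2 1.42.0 with and without apeglm 1.24.0, other scalings, no filter, the series of mouse numbers, a replicate block, and each mouse left out. Replicates of a genotype differed by more than counting noise. Same-numbered mice did not deviate together (r between -0.13 and 0.10), so numbers were not taken as pairs. The genes and lists were chosen with earlier results of these data known. Named were the 10 genes, 18 further clock genes, the 3 highest and 3 lowest tested genes of each other list, the 5 genes most like and most unlike Arntl and Dbp, and Pcx. Thra and Sphk2 were added for their overlap with Nr1d1 and Dbp, Cyp2a5 for its likeness to Cyp2a4, and the ratio of Nr1d1 to Nr1d2 after its values were seen. Some other clock genes are not reported here. The steps were tested on simulated data. Promoters came from RefSeq (GRCm38.p6), coordinates of genes from GENCODE M21.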

Additional observations from a re-analysis of the deposited data

Results flagged for a closer look

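In 5 of 120 groups of 4 mice checked, 1 sample stood far from the others (its gap divided by the range above Dixon's 95% critical value, which chance passes in about 1 group in 20). Csnk1d in Pcx L-/- replicate 1 was the lowest of its genotype at 1066 (0.869 of the range). Ciart at 392 (0.938) and Csnk1e at 84.86 (0.902) were the lowest among Pcx f/f livers in replicate 4, and Bhlhe41 at 81.27 (0.869) the highest in replicate 2. Rorb in Pcx L-/- replicate 2, at 0.7633, is 1 read where the other 3 livers of the genotype had 0. None of the 10 listed clock genes was among these.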

How the results depend on the processing

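Over all genes, the median log2 fold change rose to 0.28 when libraries were scaled by size alone, and limma on log2(FPKM + 1) and log2(FPKM + 0.1) to 0.18 and 0.27, so that changes there are read relative to these shifts. Arntl and Nr1d1 were higher in all 18 alternatives (log2 fold changes 1.04 to 1.66 and 0.97 to 1.47). The number of the 10 clock genes called lower, 2, became 1 with library size only and with both forms of limma, where Cry1 was lost, and ran from 1 (without Pcx f/f replicate 3 or Pcx L-/- replicate 4) to 4 (without Pcx L-/- replicate 1) with 1 mouse left out. With DESeq2 in both forms it was 3, with Nr1d2. With the replicate block it was 3, since Per3 was then called, and of all genes 2975 were called in place of 3632. Not every mouse correlated best with the mouse of its own number. Of the other clock genes, 7 were called, 4 with the mice of the 800s only, and 3 to 8 with 1 mouse left out (3 without Pcx L-/- replicate 3 or 4, and 4 without Pcx L-/- replicate 2 or Pcx f/f replicate 1 or 3). The 15 output genes became 9 without Pcx L-/- replicate 4, the lowest of 9 to 17. For temperature genes the count of 1 became 5 with library size only, 2 with DESeq2 in both forms, 4 with both forms of limma, 3 with the 800s only, and 1 to 2 with 1 mouse left out (2 without Pcx L-/- replicate 1). For glucocorticoid and CREB targets the 9 became 5 with both forms of limma and 4 to 9 with 1 mouse left out (4 without Pcx L-/- replicate 4, and 5 without Pcx L-/- or Pcx f/f replicate 3). For the series of mouse numbers, the 0 became 2 with DESeq2 and 0 to 1 with 1 mouse left out (1, Per3, without Pcx f/f replicate 3). The cause of these changes was not tested.

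Of the reversed log2 fold changes none was called. With library size only, limma at + 1 and limma at + 0.1, in this order, Nfil3 gave 0.099, 0.094 and 0.11, Csnk1d 0.12, 0.11 and 0.12, Hsph1 0.13, 0.16 and 0.18, Dnajb1 0.13, 0.11 and 0.12, and Cirbp 0.23, 0.29 and 0.30. Ciart gave 0.031 and 0.037 with the 2 forms of limma. With DESeq2 size factors Dbp gave -0.0027 and Clock -0.011, and Clock gave -0.0091 with DESeq2, -0.0060 with apeglm, -0.086 with the series as covariate and -0.10 with the 800s only. Cirbp gave 0.015 with the replicate block, 0.15 with the series as covariate and 0.27 with the 800s only. With 1 mouse left out Dbp ran from -0.17 to 0.17, Clock from -0.093 to 0.14, Timeless from -0.029 to 0.10, Hsph1 from -0.41 to 0.10 and Cirbp from -0.19 to 0.16. The depth limits Npas2, which was tested only without the filter on low counts or in fits with fewer mice. In the filtered fits with fewer mice it passed the filter through the Pcx L-/- livers alone.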
